A study of Mus musculus with 6 samples.

Results

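The ID proteins and the bone morphogenetic protein (BMP) genes described here are 10 genes, ID1, ID2, ID3, ID4, SMAD6, SMAD7, BMP2, BMP4, BMPR1A and GREM1, out of the 23282 gene rows of each library. They were taken by gene symbol, which the files write in capitals, and they were chosen by their log2 fold changes between control and JAG1-overexpressing cells, which were already known, so that these differences are given as a description without a test. RNA was sequenced from a transfected line of mouse astrocytes, the star-shaped glial cells of the brain, in 6 libraries. All 6 libraries share the deletion labelled Ink4a-/-, named Ink4a/Arf-/- in the study, which removes a tumor suppressor locus that codes for both proteins, and growth in DMEM with 10% fetal bovine serum. The 3 control libraries came from cells that received pcDNA3.1-puro, an empty vector, and the 3 JAG1 libraries from cells that received pcDNA3.1-JAG1-puro, which carries JAG1, a ligand of NOTCH receptors. The genotype label of the control libraries is WT, which was read as without added JAG1, since their cell line label is Ink4a-/- too. Whether a group's libraries stem from separate transfections, and whether the transfected cells were a pool or 1 clone, is not given in the sources used here, so that p-values measure only the spread between these libraries, which may be technical.

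BMPs are secreted ligands that bind pairs of type I and type II serine/threonine kinase receptors, which then phosphorylate SMAD1, SMAD5 and SMAD9. These enter the nucleus with SMAD4 and switch on target genes, of which the ID genes are the best known, together with SMAD6 and SMAD7, which feed back on the receptors. ID proteins have a helix-loop-helix but no DNA-binding part, so they pair with basic helix-loop-helix (bHLH) factors and keep these off DNA. Secreted antagonists such as GREM1 bind BMP2 and BMP4 before they reach a receptor. In the brain, BMP signaling favors the formation of astrocytes from neural precursor cells.

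The 4 ID genes are shown first by the stretch of coding sequence that makes them 1 family. Each stretch is 120 bases long, lies in exon 1 and codes for the helix-loop-helix, and the capitals mark the 69 bases that are the same in all 4 genes (GENCODE release M21 on GRCm38; positions are chr2:152736518-152736637 on the plus strand for ID1, chr12:25095783-25095902 on the minus strand for ID2, chr4:136144002-136144121 on the plus strand for ID3 and chr13:48261693-48261812 on the plus strand for ID4).
ID1: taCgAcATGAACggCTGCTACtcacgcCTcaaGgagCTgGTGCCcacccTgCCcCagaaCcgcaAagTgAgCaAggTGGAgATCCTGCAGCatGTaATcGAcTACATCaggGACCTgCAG
ID2: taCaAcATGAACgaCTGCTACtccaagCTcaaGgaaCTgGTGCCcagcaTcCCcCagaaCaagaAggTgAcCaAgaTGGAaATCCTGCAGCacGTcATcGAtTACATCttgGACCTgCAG
ID3: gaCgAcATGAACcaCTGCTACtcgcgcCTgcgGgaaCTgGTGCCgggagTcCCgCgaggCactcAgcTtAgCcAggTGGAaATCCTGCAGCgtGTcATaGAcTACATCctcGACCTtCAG
ID4: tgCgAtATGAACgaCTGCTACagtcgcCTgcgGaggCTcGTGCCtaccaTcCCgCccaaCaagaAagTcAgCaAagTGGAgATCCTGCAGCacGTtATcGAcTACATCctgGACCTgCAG
Within this stretch, ID1 and ID2 shared the most bases, 98 of 120 (81.7%), and ID1 with ID3 and ID3 with ID4 the fewest, 85 of 120 (70.8%). Over the whole transcripts, the longest run of bases common to a pair of ID genes was 11 to 19 bases.

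The start of GREM1 is shown because GREM1 differed most between the groups among the 10 genes. The 250 bases before its RefSeq start site (GRCm38.p6, chr2:113758649-113758898, minus strand) are printed 5′ to 3′ with capitals on the motifs that were searched.
GREM1: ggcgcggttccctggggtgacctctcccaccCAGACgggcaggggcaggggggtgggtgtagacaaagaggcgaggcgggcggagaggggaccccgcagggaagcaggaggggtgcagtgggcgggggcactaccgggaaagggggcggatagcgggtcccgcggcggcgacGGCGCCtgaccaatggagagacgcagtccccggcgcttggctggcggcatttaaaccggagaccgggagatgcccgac
The motifs were GGCGCC, a GC-rich site known to be bound by SMAD proteins, GTCTG or its reverse complement CAGAC, the short SMAD element, and GTCTAGAC, the palindromic SMAD box, which holds no GTCTG. They were chosen after the sequences had been seen, were searched on both strands in 300 bases around the start site (250 before it and 50 after), and are a match of letters, not a measured binding site. Of 32851 RefSeq mouse promoter windows of this length, 11.9% hold GGCGCC, 49.6% hold GTCTG on either strand and 0.213% hold GTCTAGAC. SMAD7 was left out of the promoter search. Among the other genes, windows were found for 7, which are ID2, ID3, ID4, SMAD6, BMP4, BMPR1A and GREM1.

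With the first transcribed base counted as 0, GREM1 held GGCGCC from -78 to -73 and CAGAC from -219 to -215 and again from 17 to 21. The sites of 5 other genes are shown as 30 bases each, from the same build, with the motif in capitals.
ID2 chr12:25096306-25096335 (minus strand): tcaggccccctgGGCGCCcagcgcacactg
ID3 chr4:136143643-136143672 (plus strand): tgtcctcggcgtCAGACcagcctaaggaag
ID3 chr4:136143742-136143771 (plus strand): ggacccttggcgGTCTGttttgaataaggg
ID4 chr13:48260956-48260985 (plus strand): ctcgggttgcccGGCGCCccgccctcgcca
SMAD6 chr9:64022045-64022074 (minus strand): gccgccaaagtGTCTAGACtggcatatgat
BMPR1A chr14:34502727-34502756 (minus strand): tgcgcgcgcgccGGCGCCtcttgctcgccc
SMAD6 alone of the 7 windows held the rare palindrome, from -4 to 3, but SMAD7, the other inhibitory SMAD, was not searched. The BMP4 window held none of the 3 motifs. BMPR1A, the level of which overlapped between the groups in the counts, held GGCGCC as did ID2, ID4 and GREM1. The 250 bases before the start sites of ID2, ID3 and BMPR1A overlap annotated untranslated or coding sequence of the same gene. Sites in these 3 windows may therefore lie in transcribed sequence. The same holds for the SMAD6 palindrome, as the RefSeq span of SMAD6 reaches to chr9:64022085. The GREM1 CAGAC from 17 to 21 lies after the start site.

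The control libraries held 18889751 to 20489062 reads counted on genes and the JAG1 libraries 14341634 to 20071276. Levels are in CPM, that is read counts scaled to a common library size, after normalization by the trimmed mean of M-values (TMM), and a count of 3, taken as the limit of detection, equals 0.148 to 0.206 CPM, which covers counting error only. QuantSeq libraries hold reads from the 3′ ends of transcripts. JAG1 itself had 8.99, 10.8 and 11.2 CPM in the control and 15.2, 13.6 and 13.8 CPM in the JAG1 libraries, which is 0.46 higher on the log2 scale (standard error 0.11, edgeR quasi-likelihood test, adjusted p = 0.00446). Reads from the plasmid and from the cell's own JAG1 cannot be told apart in these counts. Whether plasmid transcripts carry the 3′ end that is counted is not given in the sources used here. The difference is therefore not read as the degree of overexpression. Of the 12 astrocyte markers listed, GFAP, AQP4, SLC1A2, SLC1A3 and FABP7 were at or under 3 reads in every library. Of the 7 that could be tested, 6 were lower in JAG1 libraries, among them SOX9 (181 against 18.0 CPM). The remaining one, VIM, was not called (3106 against 3213 CPM). Over all tested genes, 27.4% were called higher and 27.7% lower (edgeR, adjusted p under 0.05), which is the background for each marker group. VIM made up most of the summed level of the markers, 3267 to 3751 against 3342 to 3408 CPM, so that this sum says little about the others. The name astrocyte is that given by the sources. The summed level of the mural and fibroblast markers was 628 to 637 CPM in control and 254 to 299 CPM in JAG1 libraries, with 1 of 5 tested markers higher (COL1A2, 3.35 against 50.7 CPM), 4 lower, among them ACTA2 (310 against 39.5 CPM), and RGS5 and LUM at 0. That of the neuron markers was 76.4 to 84.5 against 8.05 to 9.11 CPM, almost all from TUBB3, with both tested markers lower and the other 4, RBFOX3, SNAP25, SYT1 and DCX, at or under 3 reads in every library. The summed markers of microglia (3.24 to 3.97 against 1.55 to 2.34 CPM, with TMEM119 lower, CX3CR1 higher and the other 4 not tested), oligodendrocyte lineage (3.45 to 4.80 CPM over all libraries) and endothelium (at most 0.322 CPM) were low. The lower microglia sum came from TMEM119 (2.24 against 0.103 CPM), whereas CX3CR1 went the other way (0.713 against 1.26 CPM). Among the called markers, ALDOC, S100B, STMN2, TMEM119 and DCN passed the filter on low counts only through the control libraries. CX3CR1 passed it only through the JAG1 libraries. A call for such a gene could hardly go the other way, so nothing is read from these calls. Most of the tested astrocyte markers, and the summed neuron and mural or fibroblast markers, differed between the groups, as did most of the ID and BMP genes. Of all tested genes, 55.1% were called in either direction. The part of these markers in the values that follow was not tested.

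Of the 10 genes, 9 had enough reads to be tested and BMP2 had not. In the edgeR fit over all 11712 tested genes, in which 55.1% were called at an adjusted p under 0.05 (27.4% higher and 27.7% lower in JAG1 libraries), 6 of the 9 were called higher, 1 was called lower and 2 were not called. The libraries of the groups did not overlap for 6 genes that were higher and 1 that was lower, while 62.0% of all tested genes did not overlap, 31.1% higher and 30.9% lower. Since the genes were picked with this contrast known, nothing is read from these counts.

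ID1, which marks BMP receptor activity in many cell types, had 93.7, 109 and 118 CPM in the control libraries and 334, 275 and 337 CPM in the JAG1 libraries. Every JAG1 library stood far above every control library. The means were 107 ± 12.4 and 315 ± 34.8 CPM (SD, n = 3 each), 2.95 times as high in JAG1 libraries, a log2 fold change of 1.56 (standard error 0.10, 95% interval 1.35 to 1.77). Only 2.99% of the tested genes had a higher log2 fold change. In bulk RNA, fewer cells that express a gene and less of its RNA per cell cannot be told apart, which holds for every value here.

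ID3, which often varies together with ID1, had 483, 461 and 450 CPM in control and 1017, 1063 and 997 CPM in JAG1 libraries. The groups were well apart and each was tight. The means were 465 ± 17.2 and 1025 ± 34.0 CPM (SD, n = 3 each), 2.21 times as high, with a log2 fold change of 1.14 (standard error 0.05, 95% interval 1.03 to 1.25).

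ID4, which is known in astrocyte and neural stem cell biology, was measured with far fewer reads, 32, 40 and 40 in the control and 148, 72 and 134 in the JAG1 libraries. This equals 1.58, 2.15 and 2.09 against 7.38, 4.95 and 8.14 CPM, with JAG1 replicate 2 the lowest of its group and still above all control libraries. The log2 fold change was 1.82 (standard error 0.22, 95% interval 1.35 to 2.30), which had the widest interval of the 9 genes. The RefSeq span of ID4 shares 1508 bases with the long non-coding RNA A330033J07Rik, for which the files list 0 reads in all libraries.

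ID2 showed a much smaller difference. It had 115, 110 and 107 CPM in control and 120, 121 and 126 CPM in JAG1 libraries, so that the groups lay side by side without overlap. The means were 111 ± 4.23 and 122 ± 3.29 CPM (SD, n = 3 each), a log2 fold change of 0.14 (standard error 0.05, 95% interval 0.02 to 0.26), and 36.9% of the tested genes had a higher one.

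**Figure D1:**
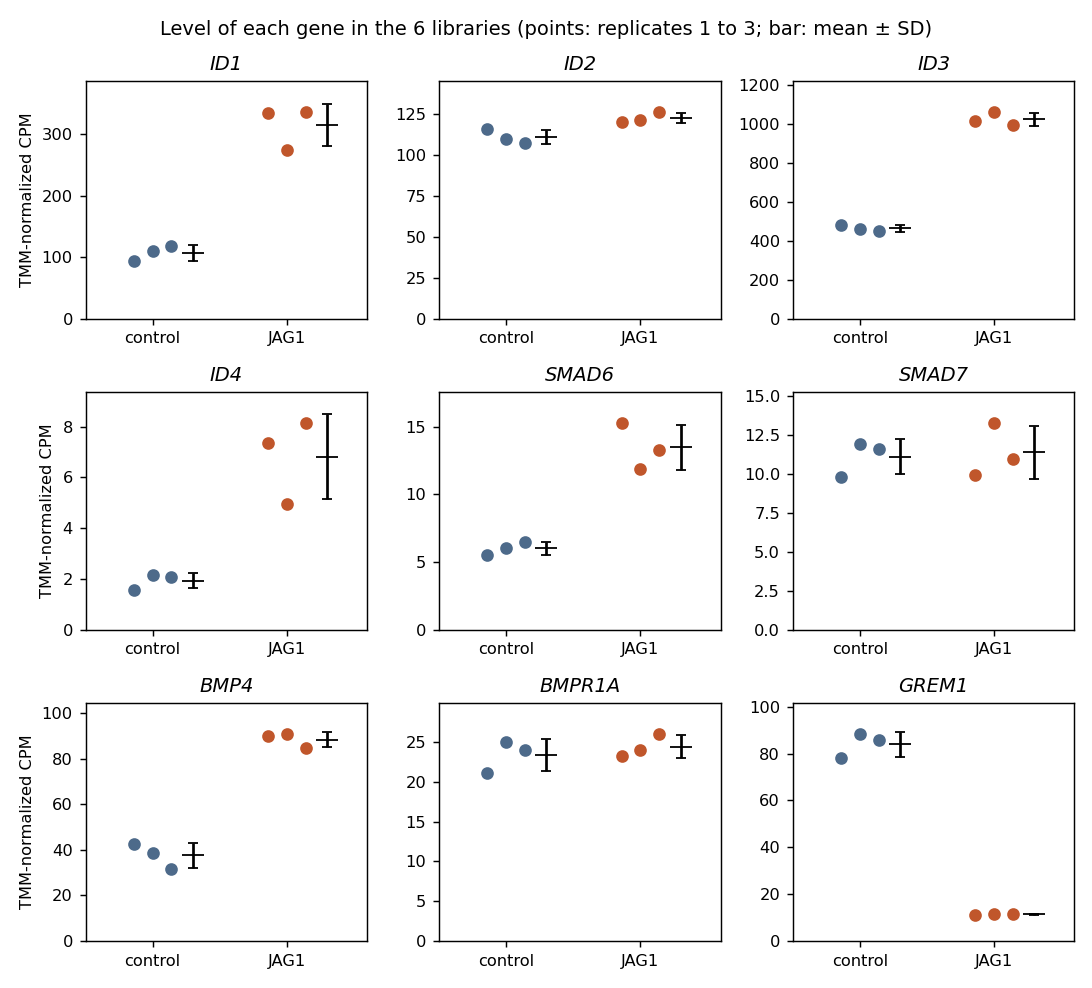
TMM-normalized CPM (vertical axes, each starting at 0) of the 9 tested genes in the 3 control (blue) and 3 JAG1 (orange) libraries, with replicates 1 to 3 as points from left to right and the mean ± SD as a bar. ID1, ID3, ID4, SMAD6 and BMP4 stood higher in every JAG1 library, GREM1 stood lower in each of them, ID2 differed by little, and SMAD7 and BMPR1A overlapped.

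Ratios of reads within 1 library need no normalization between libraries. ID1 had 0.812, 0.998 and 1.10 reads for each read of ID2 in the control libraries and 2.79, 2.27 and 2.67 in the JAG1 libraries, and ID4 had 0.0137, 0.0196 and 0.0195 against 0.0616, 0.0408 and 0.0646. For ID3, the ratio to ID2 was nearly fixed among control libraries, at 4.19, 4.21 and 4.20, and was 8.49, 8.76 and 7.91 in JAG1 libraries. None of these ratios overlapped between the groups. They largely restate the log2 fold changes by which the genes were chosen, so nothing is read from this. The Euclidean distance between the centred log2 CPM profiles over the 6 libraries, which largely restates the difference in log2 fold change, was 1.77 for ID1 and ID2 and 0.399 for ID1 and ID4.

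Among all other tested genes, the profiles nearest to that of ID1 were IFRD2 (distance 0.106) and TMEM185B (0.175), and IFRD2 was again among the nearest to ID4 (0.423) after ECHDC2 (0.375). The nearest to ID3 were RTN3 (0.0630) and LDHA (0.0980), and the nearest to ID2 were PFDN1 (0.0335) and RPS16 (0.0342), a ribosomal protein gene. RTN3 is on chromosome 19, for which the median log2 fold change over its tested genes was 0.61, as set against -0.53 on chromosome 15. None of the 10 genes is on either of these chromosomes, and the medians of the chromosomes that hold them were between -0.12 and 0.05.

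SMAD6, which blocks BMP type I receptors and the pairing of SMAD1 with SMAD4, had 5.53, 6.07 and 6.49 CPM in control and 15.3, 11.9 and 13.2 CPM in JAG1 libraries. All JAG1 libraries were higher than all control libraries. The means were 6.03 ± 0.479 and 13.5 ± 1.69 CPM (SD, n = 3 each), 2.23 times as high, with a log2 fold change of 1.17 (standard error 0.13, 95% interval 0.89 to 1.44).

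SMAD7, the other inhibitory SMAD, which acts on both TGF-β and BMP receptors, did not follow SMAD6. It had 9.83, 11.9 and 11.6 CPM in control and 9.97, 13.3 and 11.0 CPM in JAG1 libraries, and the groups overlapped almost entirely. Its log2 fold change was 0.03 (standard error 0.13, 95% interval -0.25 to 0.31). There were 0.563, 0.509 and 0.559 reads of SMAD6 for each read of SMAD7 in control libraries and 1.53, 0.896 and 1.20 in JAG1 libraries. The RefSeq span of SMAD7 shares 163 bases with the long non-coding RNA Gm41776, and whether the counting used strand is not given in the sources used here.

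BMP4, a BMP ligand, had 42.5, 38.7 and 31.8 CPM in control and 89.9, 90.8 and 84.7 CPM in JAG1 libraries. The groups were far apart, and the JAG1 libraries lay closer together than the control libraries. The means were 37.7 ± 5.42 and 88.5 ± 3.26 CPM (SD, n = 3 each), 2.35 times as high, with a log2 fold change of 1.23 (standard error 0.09, 95% interval 1.02 to 1.44). The 3′ end of BMP4 shares 84 bases with the long non-coding RNA GM15217, named here after its values were seen, which had 7.22 CPM in control and 20.2 CPM in JAG1 libraries and 1449 reads over all 6, so that reads of these genes may not be fully separated. BMP4 also shares 1805 bases with the long non-coding RNA Gm15222, for which no row was found in the files.

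BMP2, which signals through the same receptors as BMP4, was not detected: it had 0 reads in 5 libraries and 1 read in JAG1 replicate 1, below the limit of 3 reads, and no fold is given. The 13 other BMP and GDF ligands that were listed all had too few reads to be tested, and 12 of them never had more than 3 reads in a library. Their reads together came to 16, 7 and 12 in the control and 4, 2 and 1 in the JAG1 libraries, whereas BMP4 had 861, 720 and 608 against 1804, 1319 and 1395 reads. The exception was GDF5, named after its values were seen, with 13, 4 and 8 reads in control and 0 in each JAG1 library. BMP4 was thus the one listed BMP ligand with enough reads to be tested.

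BMPR1A, a type I receptor for BMP2 and BMP4, had 21.2, 25.0 and 24.0 CPM in control and 23.3, 24.1 and 26.0 CPM in JAG1 libraries. The groups overlapped, and the log2 fold change was 0.06 (standard error 0.09, 95% interval -0.13 to 0.26).

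GREM1, the secreted BMP antagonist, showed the largest difference of the 9 tested genes and the one in the opposite direction. It had 78.1, 88.2 and 85.6 CPM in control and 11.2, 11.4 and 11.6 CPM in JAG1 libraries. The JAG1 libraries were almost equal to each other and far below all control libraries. The means were 84.0 ± 5.26 and 11.4 ± 0.194 CPM (SD, n = 3 each), 7.36 times as high in control, with a log2 fold change of -2.88 (standard error 0.08, 95% interval -3.05 to -2.71), and 2.42% of the tested genes, 283 genes, had a lower one.

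The ligand and its antagonist differed in opposite directions in the same libraries. There were 0.545, 0.438 and 0.372 reads of BMP4 for each read of GREM1 in the control libraries and 8.02, 7.95 and 7.30 in the JAG1 libraries. The mean ratio was 0.451 ± 0.0872 in control and 7.76 ± 0.393 in JAG1 libraries (SD, n = 3 each), which is 17.2 times as high. These are ratios of RNA reads of a pair of genes, which restate their log2 fold changes, and protein was not measured.

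**Figure D2:**
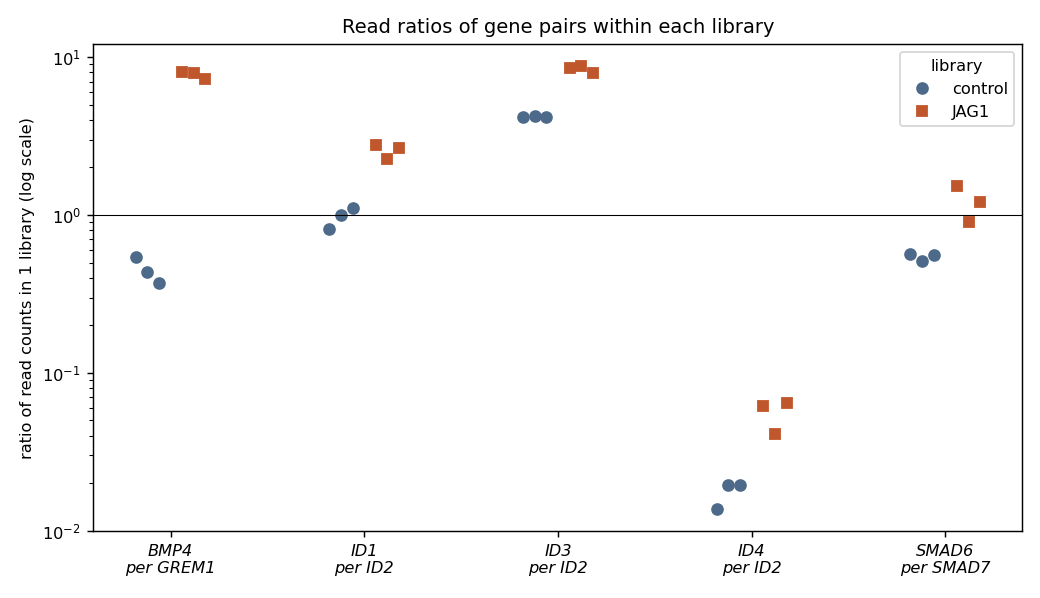
Ratio of the read counts of 2 genes within each library (vertical axis, log scale), for BMP4 per GREM1, ID1, ID3 and ID4 per ID2, and SMAD6 per SMAD7, with 1 point for each of the 3 control and 3 JAG1 libraries. For all 5 pairs the JAG1 points lie above the control points, and the gap is widest for BMP4 per GREM1, at 0.372 to 0.545 against 7.30 to 8.02.

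**Figure D3:**
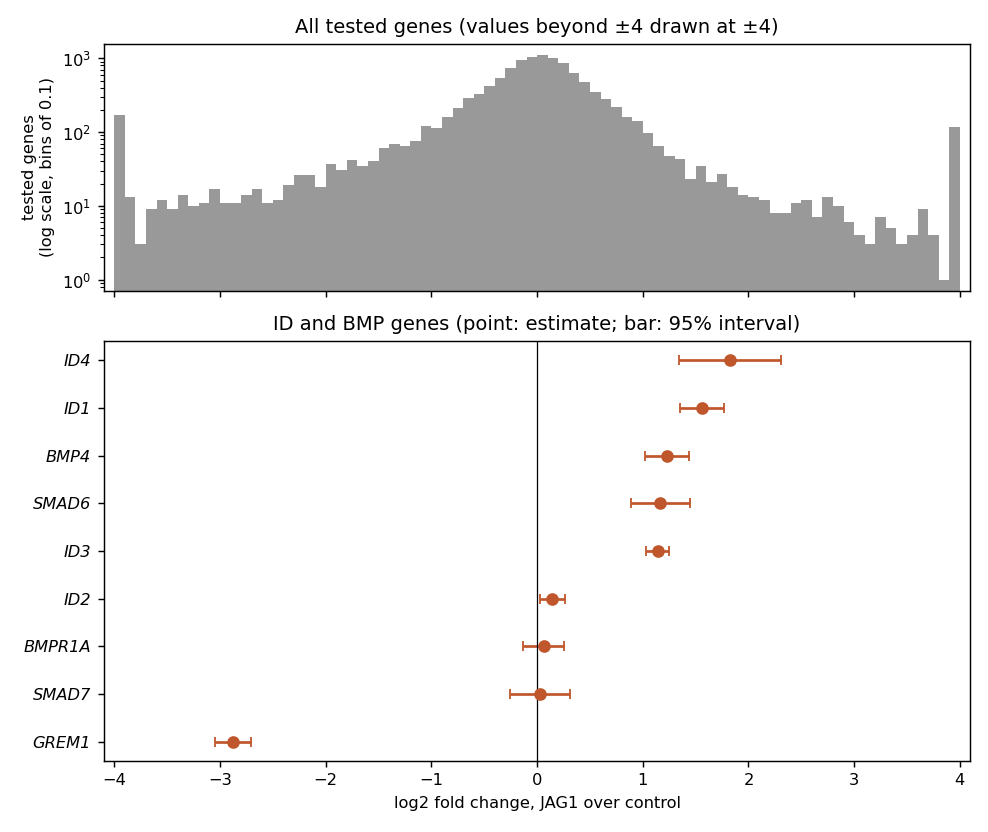
Upper panel, number of tested genes (log scale) by log2 fold change, JAG1 over control, in bins of 0.1, with values beyond 4 in either direction drawn at the edge; lower panel, the log2 fold change of the 9 tested ID and BMP genes with 95% intervals from edgeR. ID4, ID1, BMP4, SMAD6 and ID3 lie between 1.14 and 1.82, ID2, BMPR1A and SMAD7 between 0.03 and 0.14, and GREM1 at -2.88.

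The spread within groups also differed among the genes. ID2 and ID3 varied little among libraries of 1 group, with an SD of 0.05 each on the log2 scale, and ID4 varied most, with 0.31, beside a median of 0.117 over all tested genes. ID1, ID4 and SMAD6 were each lowest in the same library of each group: they lay 0.19, 0.27 and 0.12 below the control mean in control replicate 1 and 0.19, 0.42 and 0.17 below the JAG1 mean in JAG1 replicate 2 (log2 scale). ID3 lay above its group mean in both of these libraries, and so did BMP4. JAG1 replicate 2 was the library with the fewest reads, 14341634, whereas control replicate 1 had the most, 20489062.

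**Figure D4:**
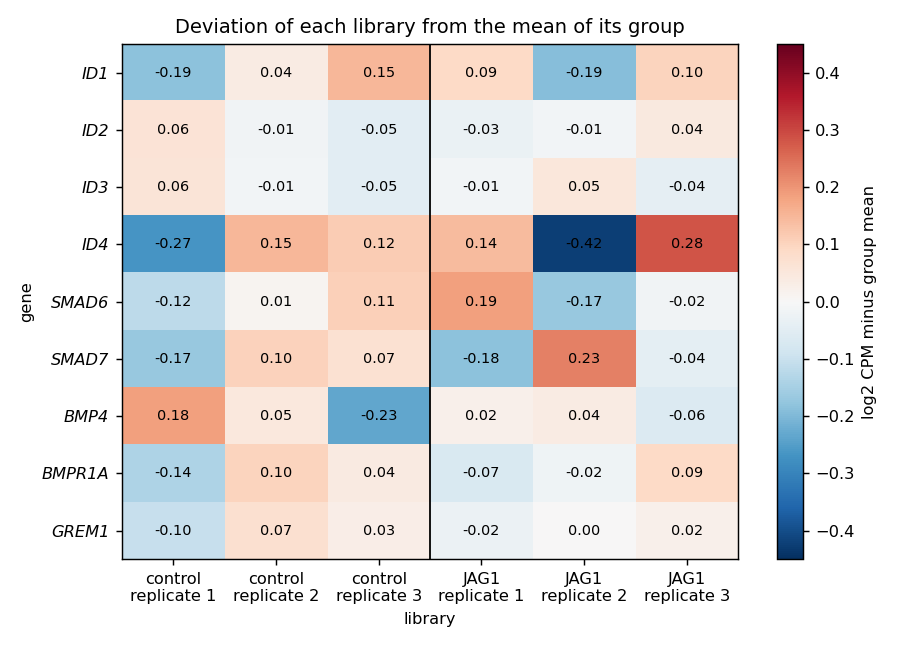
Deviation of each library (columns) from the mean of its group, in log2 CPM, for the 9 tested genes (rows), with blue below and red above the group mean. ID1, ID4 and SMAD6 are lowest in control replicate 1 and in JAG1 replicate 2, and the rows of ID2 and ID3 are close to 0 throughout.

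The rest of the pathway was described by a list of 88 other genes, all of which were found in the files and 47 of which passed the filter on low counts. Among those 47, 13 rose and 24 fell in JAG1-overexpressing cells at an adjusted p under 0.05 and 10 did neither, so that 78.7% were called beside 55.1% over all tested genes. Their median log2 fold change was -0.19, beside 0.0039 over all tested genes. These genes were tested in the same edgeR fit, with p-values adjusted over all tested genes. Of all tested genes, 27.4% were higher and 27.7% lower, which is the background for each group below. The list was drawn up with earlier results of these data known, so nothing is read from the difference between these shares.

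Among receptors and co-receptors, 8 of 11 were tested, and 2 rose and 5 fell (median log2 fold change -0.38). RGMA, a co-receptor for BMP2 and BMP4, fell from 57.9 to 11.0 CPM and decreased by 2.39 on the log2 scale (adjusted p = 2.50e-09, standard error 0.09), and was between 10.6 and 11.6 CPM in the JAG1 libraries. Its relative RGMB went the other way, from 9.87 to 13.9 CPM, a log2 fold change of 0.50 (adjusted p = 0.0219), although this call was lost without JAG1 replicate 1 (adjusted p = 0.0759) or 3 (0.0769). ENG, a co-receptor best known from endothelial cells, rose from 70.0 to 90.2 CPM (log2 fold change 0.37, adjusted p = 0.000624). The type II receptor gene ACVR2B was 2.13 CPM in control and 1.26 CPM in JAG1 libraries (log2 fold change -0.78, adjusted p = 0.0339), a call that was lost with DESeq2 (0.0766) and without control replicate 1 (0.108) or 2 (0.0586) or JAG1 replicate 1 (0.104) or 3 (0.117).

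The main type II receptor gene BMPR2 fell from 22.1 to 16.9 CPM (log2 fold change -0.39, adjusted p = 0.00442) and the type I receptor gene ACVR1 from 29.6 to 20.2 CPM (log2 fold change -0.55, adjusted p = 0.000127), both named after their values were seen. Unlike these, BMPR1A overlapped between the groups, as given above. BMPR1B, likewise, had 0 reads in every library.

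None of the 3 tested SMADs that carry the signal was higher. SMAD1 fell from 17.8 to 12.6 CPM (log2 fold change -0.49, standard error 0.10, adjusted p = 0.00135) and SMAD4, the partner of all receptor SMADs, from 126 to 110 CPM (log2 fold change -0.20, standard error 0.06, adjusted p = 0.0105). SMAD5, named after its values were seen, was 74.2 CPM in control and 69.7 CPM in JAG1 libraries (log2 fold change -0.09, 95% interval -0.23 to 0.05, adjusted p = 0.252). SMAD9, likewise, had too few reads to be tested, with 1, 3 and 4 reads in control and 10, 9 and 12 in JAG1 libraries.

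Of the 21 extracellular modulators, 9 were tested, and 3 rose and 4 fell. FST, which codes for follistatin, a secreted protein that binds activins and some BMPs, rose from 62.2 ± 14.5 to 290 ± 27.1 CPM (SD, n = 3 each), which is 2.22 higher on the log2 scale (standard error 0.14, adjusted p = 1.50e-07). NBL1, an antagonist of the same family as GREM1, fell from 9.43 to 0.865 CPM (log2 fold change -3.41, standard error 0.17, adjusted p = 3.28e-08), and FSTL1, a secreted follistatin-like protein that binds BMP4, fell from 195 to 49.8 CPM (log2 fold change -1.97, standard error 0.12, adjusted p = 1.43e-07). Besides BAMBI, the others that were called, named after their values were seen, were BMPER, which rose from 2.13 to 5.81 CPM (log2 fold change 1.46, adjusted p = 0.000104), and DAND5 and TWSG1, which fell (log2 fold changes -1.31 and -0.42, adjusted p = 0.00240 and 0.00300). CRIM1 (log2 fold change -0.01, adjusted p = 0.941) and BMP1 (-0.19, adjusted p = 0.139) were not called.

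BAMBI, a pseudoreceptor that is itself induced by BMP and TGF-β, had 1, 5 and 6 reads in control and 14, 13 and 13 reads in JAG1 libraries. It was called (log2 fold change 1.89, standard error 0.51, adjusted p = 0.00849) but passed the filter on low counts only through the JAG1 libraries. With a mean count of at least 10 required it was not tested, and 12 pathway genes were higher instead of 13. Noggin (NOG), CHRDL1 and CHRDL2, which are antagonists too and were named after their values were seen, had 0 reads in every library. Of the 12 extracellular modulators that were not tested, none had more than 10 reads in any library.

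The intracellular modulators were nearly all measured, 15 of 16, and were evenly split, with 5 that rose and 5 that fell (median log2 fold change 0.01). CTDSPL, of a family of phosphatases that act on SMADs, rose from 47.4 to 80.4 CPM (log2 fold change 0.76, adjusted p = 2.49e-06) and SMURF2, a ubiquitin ligase for SMADs and receptors, from 17.1 to 26.2 CPM (0.62, adjusted p = 9.41e-05). SKI, which represses SMAD-driven transcription, fell from 120 to 78.3 CPM (log2 fold change -0.62, adjusted p = 5.15e-06). TAB1, an activator of the kinase MAP3K7, fell from 19.7 to 12.9 CPM (-0.61, adjusted p = 8.10e-05), and lies on chromosome 15, where the median log2 fold change over all tested genes was -0.53.

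**Figure D5:**
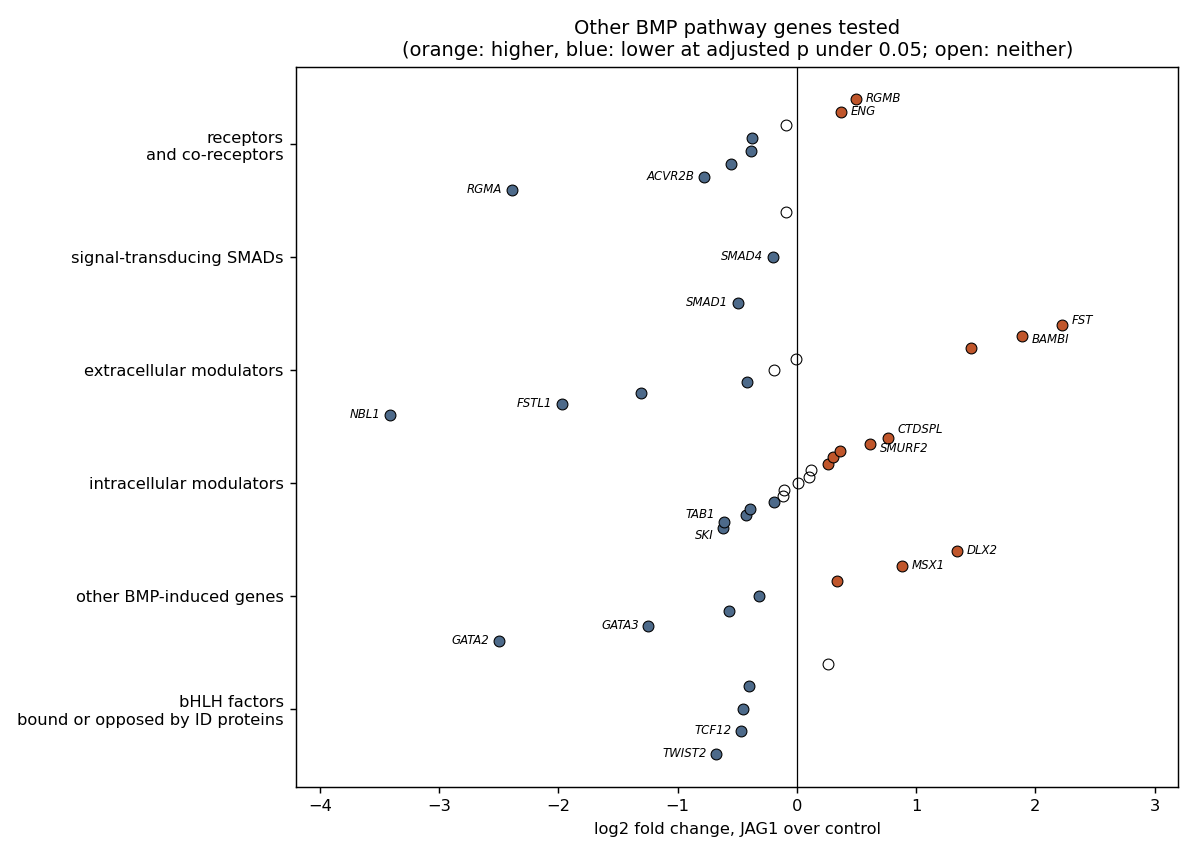
Log2 fold change, JAG1 over control (horizontal axis), of the 47 tested genes of the BMP pathway list by group (vertical axis), with 1 point per gene, orange for genes that rose, blue for genes that fell and open for genes that were not called in the edgeR test at an adjusted p under 0.05. Points lie on both sides of 0 among extracellular and intracellular modulators, and 4 of the 5 bHLH factors lie below 0.

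Other genes known to be induced by BMPs did not all go the way of ID1. Of 13 listed, 7 were tested, of which 3 rose and 4 fell. MSX1, a homeobox gene induced by BMP4 in many embryonic tissues, rose from 20.2 to 37.1 CPM (log2 fold change 0.88, standard error 0.11, adjusted p = 4.25e-05) and DLX2 from 0.822 to 2.10 CPM (log2 fold change 1.35, standard error 0.29, adjusted p = 0.00219). By contrast, GATA2 fell from 10.2 to 1.82 CPM (log2 fold change -2.50, standard error 0.21, adjusted p = 2.17e-06) and GATA3 from 5.05 to 2.16 CPM (log2 fold change -1.25, standard error 0.26, adjusted p = 0.00165).

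The tested bHLH factors that ID proteins bind or oppose were lower or not called. Of 10 listed, 5 were tested, and 4 fell and none rose (median log2 fold change -0.45). Over all tested genes, 27.7% were called lower, and 5 genes are few to set against that share. TCF12, an E protein, fell from 101 to 73.1 CPM (log2 fold change -0.47, standard error 0.06, adjusted p = 8.26e-05). The other E proteins, named after their values were seen, fell as well, TCF3 from 64.3 to 47.1 CPM (log2 fold change -0.45, adjusted p = 0.000626) and TCF4 from 176 to 133 CPM (log2 fold change -0.40, adjusted p = 9.01e-05). TWIST2 fell from 63.5 to 39.8 CPM (log2 fold change -0.68, standard error 0.07, adjusted p = 1.38e-05), whereas TWIST1, likewise named after its values were seen, was 9.53 CPM in control and 11.4 CPM in JAG1 libraries (log2 fold change 0.26, 95% interval -0.04 to 0.56, adjusted p = 0.128). OLIG1, OLIG2, NEUROD1 and NEUROG2, also named after their values were seen, were not tested and had at most 1 read in any library.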

How the data were processed

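RNA of 3 control and 3 JAG1 libraries was measured by QuantSeq 3′ sequencing. For each library the authors deposited raw read counts per gene and a normalized count on the log2 scale, for 23282 rows, of which 37 symbols are repeated. Bowtie2, bedtools and edgeR, and the build GRCm38 (mm10), are named without versions in the submitters' processing notes. The raw counts were used, and the deposited log2 values only for an alternative. Analysis was in R 4.3.3 with edgeR 4.0.16. Low counts were removed by filterByExpr (minimum 10), 11712 genes remained, and these went through TMM, the quasi-likelihood test of group, and Benjamini-Hochberg adjustment with a threshold of 0.05. Standard errors were derived from the F statistic, and SDs are over 3 libraries. The biological coefficient of variation was 0.0770. No library was a copy of another, as the lowest chi-square per degree of freedom between libraries was 3.71. Profile distances used log2 CPM with a prior count of 2.

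The 10 genes, the pathway list, the marker lists, the tests and the alternatives were chosen with earlier results of these data known. Genes named were the 10 genes, JAG1, up to 2 called genes in each direction from each pathway group by absolute log2 fold change, and for each ID gene the 2 nearest profiles; others are stated as named after their values were seen, and marker genes come from the marker lists. Alternatives were DESeq2 1.42.0, limma 3.58.1, other normalizations and filters, a fold limit, a replicate block and leaving out each library. The script was tested on simulated data. Sequences came from RefSeq (GRCm38.p6) and GENCODE M21.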

Additional observations from a re-analysis of the deposited data

How the results depend on the processing

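The log2 fold changes of the 9 tested ID and BMP genes moved by less than the spread between libraries under the 14 settings tried, in all 126 comparisons. Where 1 of 3 libraries of a group is left out, the move is nearly bound to be smaller than that spread. Nothing is therefore read from those comparisons. The values stayed between 1.47 and 1.65 for ID1, 0.12 and 0.17 for ID2, 1.11 and 1.17 for ID3, 1.69 and 2.0 for ID4, 1.06 and 1.25 for SMAD6, 1.12 and 1.33 for BMP4, and -2.93 and -2.84 for GREM1. Those of SMAD7 (-0.08 to 0.13) and BMPR1A (-0.01 to 0.11) crossed 0, so that 6 to 8 of the 9 were above 0 when 1 library was left out. With an absolute log2 fold change of at least 1 required, 4 pathway genes were higher and 6 lower, and 639 and 994 of all tested genes. With 1 library left out, 11 to 14 pathway genes were higher and 22 to 24 lower, and 2724 to 3256 and 2792 to 3344 of all tested genes. Among the settings for the named pathway genes and JAG1, 286 values kept their call and 7 lost it, those of ACVR2B and RGMB given above. The replicate numbers were not taken as pairs: deviations of same-numbered libraries correlated at 0.148, 0.0614 and 0.119 over genes, although every library correlated best with its own number. With a replicate block, 13 pathway genes were higher and 24 lower, and 3380 and 3331 of all tested genes. BAMBI and ID4 rest on few reads, which limits their precision. Strand use in the counting and separate transfections are not given in the sources used here.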
